A study of Mus musculus with 42 samples.

Results

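The collagen chain genes are the genes whose symbol has the form of a collagen alpha chain, such as Col1a1. On the arrays, 82 of 34958 probe sets listed with 1 gene carried such a symbol, and they stood for 42 of 18194 genes. By structure the 42 fall into 11 fibrillar, 6 basement membrane, 3 network, 5 beaded filament, 9 fibril-associated, 2 multiplexin, 4 transmembrane and 1 anchoring fibril chain, with Col26a1 outside these classes. No probe set listed with 1 gene named Col6a6, Col21a1 or Col28a1.

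Messenger RNA was measured on 42 arrays, 1 per culture of fibroblasts grown from the synovium, the soft lining of the joint. Donors were female mice of the BALB/c strain with arthritis raised by cartilage proteoglycan in the adjuvant DDA, either wild-type or lacking a working Tnfaip6, which encodes TSG-6, a secreted protein that binds hyaluronan. All cultures had been expanded for up to 6 passages and starved of serum overnight before 12 h with or without an agent. The wild-type arrays were 5 untreated and 2 each with 5 ng/ml TNFa, 200 ng/ml lipopolysaccharide (LPS), 120 ug/ml TSG-6 made as a recombinant mouse protein, 24 ug/ml hyaluronan (HA), or TSG-6 and HA at those doses. The arrays of the knockout were 8 untreated, 3 with TSG-6 and 4 with each other agent. The labels do not say whether each culture, called a biological replicate, had an animal of its own, so p-values measure the spread between cultures. In bulk RNA, fewer cells of a type and less RNA per cell cannot be told apart.

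Each value below is a log2 expression value from which the probe set's median over the 42 arrays had been taken away. A value of 0 is therefore that gene's own middle value, differences between arrays are log2 fold changes, and the levels of different genes cannot be set against each other. The base of the logarithm is not stated and was taken as 2. Differences are given ± SE, and adjusted p-values are limma's with Benjamini-Hochberg adjustment over the 18194 genes of a comparison. A gene passed at an adjusted p under 0.05.

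The Tnfaip6 probe set was not lower in the arrays of the knockout. Untreated wild-type arrays ran from -0.55 to -0.14 with a median of -0.34, and untreated knockout arrays from -0.41 to 0.25 with a median of -0.10, a difference of 0.26 ± 0.16 (adjusted p = 0.22). It passed in none of the 6 comparisons of genotype. Whether it reads the disrupted stretch of the gene is not known here, so its level is no check of genotype and the knockout cultures are named by their label. Within each genotype the arrays also formed 2 culture sets without a name in the labels, found from gaps of at least 1 in probe sets of other genes. The most frequent split was used, that of 33 of 34 wild-type and 12 of 18 knockout-labelled probe sets with such a gap. Only gaps with untreated arrays on both sides were counted. The sets held 8 and 7 arrays in the wild-type and 14 and 13 in the knockout-labelled cultures. The 18S ribosomal RNA probe set stood above 1 on 15 arrays, spread over both genotypes.

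A collagen molecule is a triple helix of 3 alpha chains, which may be products of 1, 2 or 3 genes. Fibrillar collagens make the banded fibres of skin, tendon and joint capsule: type I pairs Col1a1 with Col1a2, type III is made of Col3a1 alone, and type V, which nucleates fibrils and sets their width, is made of Col5a1, Col5a2 and in some tissues Col5a3. Type IV chains form the sheet-like meshwork of basement membranes under epithelia and around blood vessels, type VIII chains (Col8a1, Col8a2) form hexagonal lattices, type VI chains form beaded filaments around cells, and the fibril-associated chains decorate the surface of fibres. TSG-6 is made by stromal cells under inflammation and binds hyaluronan in the matrix.

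Promoter sequence is shown for 4 chains on which the results turn: Col8a2, Col3a1 and Col1a2, which were higher with TSG-6, and Col5a3, which was higher with nearly every agent. Each line gives the 250 bases before a start site in RefSeq's annotation of GRCm38.p6, 5′ to 3′ on the gene's strand. For Col5a3, on the minus strand, the start site used is 20815067, while the annotated gene reaches 20815117. The last part of its line therefore lies within the annotated gene. Capitals mark the letters of a TATA box (TATAAA), of a CCAAT box (CCAAT) and of the GC box that Sp1 binds (GGGCGG), on either strand. Col3a1 lies at chr1:45311288-45311537 (+), Col8a2 at chr4:126286544-126286793 (+), Col1a2 at chr6:4505368-4505617 (+) and Col5a3 at chr9:20815068-20815317 (-).
Col8a2: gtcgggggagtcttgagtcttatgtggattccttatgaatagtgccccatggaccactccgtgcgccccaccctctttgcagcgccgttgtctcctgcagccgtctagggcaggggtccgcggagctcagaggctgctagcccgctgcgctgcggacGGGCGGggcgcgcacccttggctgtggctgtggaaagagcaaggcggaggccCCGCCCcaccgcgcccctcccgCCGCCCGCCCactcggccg
Col3a1: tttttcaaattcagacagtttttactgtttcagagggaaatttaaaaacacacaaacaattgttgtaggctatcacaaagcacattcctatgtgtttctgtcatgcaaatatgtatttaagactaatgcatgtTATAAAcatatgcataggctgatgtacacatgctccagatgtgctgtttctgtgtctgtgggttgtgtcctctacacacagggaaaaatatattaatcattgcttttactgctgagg
Col1a2: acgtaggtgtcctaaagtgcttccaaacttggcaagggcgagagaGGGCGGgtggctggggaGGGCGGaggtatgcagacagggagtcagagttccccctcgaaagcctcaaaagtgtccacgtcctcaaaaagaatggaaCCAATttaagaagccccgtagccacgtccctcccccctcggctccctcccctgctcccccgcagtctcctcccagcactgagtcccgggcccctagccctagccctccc
Col5a3: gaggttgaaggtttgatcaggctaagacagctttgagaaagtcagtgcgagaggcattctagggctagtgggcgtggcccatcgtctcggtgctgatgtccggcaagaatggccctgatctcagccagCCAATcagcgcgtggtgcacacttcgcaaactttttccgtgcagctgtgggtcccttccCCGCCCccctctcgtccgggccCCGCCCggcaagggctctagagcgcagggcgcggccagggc

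The 4 promoters differ in make-up. Col3a1 has 1 TATAAA, no CCAAT and no GGGCGG, with 35.2% G and C. Col8a2 has 4 GGGCGG and neither of the others, with 70.0% G and C. Col1a2 and Col5a3 each have 1 CCAAT and 2 GGGCGG, with 62.0% and 62.8% G and C. The GGGCGG of Col5a3 at 41 to 36 bases before the start site used lies within the annotated gene. The median over all 32851 promoter entries was 52.4%.

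Entries were found for 33 of the 42 collagen genes (36 promoters, since some genes have more than 1). TATAAA stood in 13.9% of these and in 12.4% of all promoters, and CCAAT in 36.1% and 33.8%. GGGCGG stood in 58.3% of the collagen promoters and 32.7% of all. CAGACA, which holds the letters of a Smad binding element, stood in 22.2% and 17.1%. These are matches of letters on both strands and were not tested as binding sites.

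**Figure D1:**
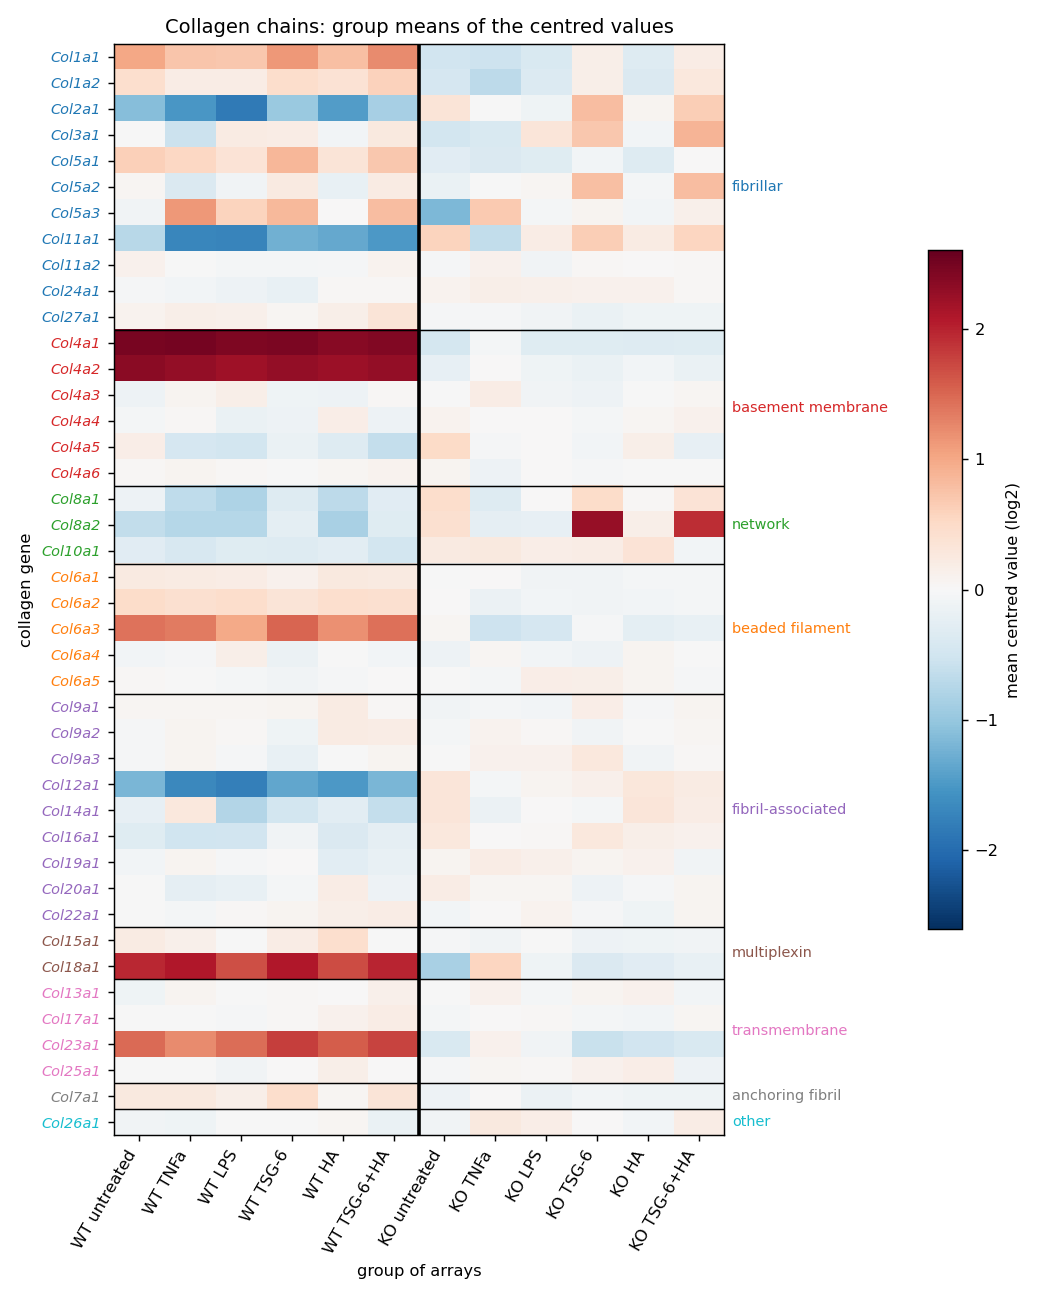
Mean centred value (log2, colour) of the 42 collagen genes (rows, by class) in the 12 groups of arrays (columns, wild-type WT and knockout-labelled KO). Col4a1, Col4a2 and Col18a1 are high in the 6 wild-type groups, Col2a1, Col11a1 and Col12a1 are higher in the knockout-labelled than in the wild-type group under each of the 6 conditions, and Col8a2 is highest in the knockout-labelled groups with TSG-6.

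Chains of the family moved with an agent, differed with genotype, did both or did neither. In at least 1 of the 10 comparisons of an agent with untreated cultures 12 of the 42 genes passed, beside 19.8% of all genes. In at least 1 of the 6 comparisons of genotype 24 passed, beside 43.0%. Of the chains that passed with an agent, all but Col4a5 and Col26a1 also passed in a comparison of genotype. No comparison called 16 of the 42, beside 52.8% of all genes: the cartilage type IX chains (Col9a1, Col9a2, Col9a3), type IV chains Col4a3, Col4a4 and Col4a6, type VI chains Col6a4 and Col6a5, fibrillar Col11a2 and Col24a1, fibril-associated Col14a1, Col20a1 and Col22a1, and transmembrane Col13a1, Col17a1 and Col25a1. The fibril-associated class held no gene that passed with any agent.

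TSG-6 raised 6 collagen chains and lowered 1 in knockout-labelled cultures (3 arrays against 8 untreated). The 7 that passed stand beside 4.75% of all genes passing in this comparison, 2.10% upward and 2.65% downward. The fibrillar class took 4 of its 11 members upward and none downward, with a class median difference of 0.48, against a median of 0.03 over the 42 chains and -0.00 over all genes. Type VIII chain Col8a2, type V chains Col5a3 and Col5a2, type III chain Col3a1, type I chain Col1a2 and the multiplexin Col18a1 rose, and the type IV chain Col4a5 fell.

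Col8a2 encodes the alpha 2 chain of type VIII collagen, a lattice collagen known from Descemet's membrane of the cornea and from vessel walls. Its untreated knockout-labelled arrays ran from 0.03 to 0.90 with a median of 0.41. With TSG-6 the 3 arrays stood at 2.14, 1.82 and 2.86. All 3 lay above every untreated array, and the difference was 1.86 ± 0.19, or 3.62-fold (adjusted p = 3.28e-08). Within the culture sets it was 1.40 in the one with 2 TSG-6 arrays. It was 2.61 in the other, which held 1 TSG-6 array, replicate 3.

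Col3a1, the only chain of type III collagen, ran from -0.82 to -0.18 in untreated knockout-labelled arrays with a median of -0.49. With TSG-6 it stood at 0.78, 0.12 and 1.21, again above all untreated arrays, a difference of 1.17 ± 0.22, or 2.25-fold (adjusted p = 0.000648). Col5a2, the alpha 2 chain of type V, went from between -0.38 and 0.03 (median -0.16) to 0.96, 0.47 and 0.91, a difference of 0.95 ± 0.14 (adjusted p = 3.03e-05). For both genes the groups did not overlap, and the difference passed within the culture set that held 2 of the TSG-6 arrays. The other set held 1 TSG-6 array, so its difference rests on that array. Each of these genes has a further probe set, on which the difference was smaller but of the same direction, 0.48 for Col3a1 and 0.58 for Col5a2, and both passed there.

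The type I chains moved less. Col1a2 went from between -0.78 and -0.20 (median -0.39) to -0.01, 0.06 and 0.42, a difference of 0.59 ± 0.14 (adjusted p = 0.00952). Without replicate 3 of TSG-6 it was 0.46 and did not pass (adjusted p = 0.108). Its other probe sets gave 0.04 and -0.16 with no call, so the rise of Col1a2 rests on 1 of 3 probe sets. Col1a1 went from between -1.05 and 0.32 (median -0.54) to -0.34, -0.03 and 0.86, groups that overlap, and its difference of 0.66 ± 0.24 did not pass (adjusted p = 0.115).

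The other chains described whatever their result stayed below the threshold with TSG-6. Col4a1 had 0.15, Col4a2 0.04, Col6a1 -0.08, Col6a2 -0.11 and Col6a3 -0.10 (log2 differences), and none of these type IV chains of basement membranes and type VI chains of the pericellular matrix passed. Col5a1, the partner of Col5a2 in type V collagen, had 0.23 ± 0.20 (adjusted p = 0.676). Col18a1 rose by 0.47 ± 0.14 (adjusted p = 0.0393), a call lost in 6 of the 11 fits with 1 array left out: 0.43 to 0.47 without untreated replicate 2, 3, 4 or 6, 0.48 without replicate 1 of TSG-6 and 0.36 without replicate 3. Its second probe set gave 0.27 and did not pass (adjusted p = 0.272), and under cyclic loess scaling it was 0.42 (adjusted p = 0.152). Col4a5 fell by 0.56 ± 0.17 with overlapping arrays (adjusted p = 0.049).

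**Figure D2:**
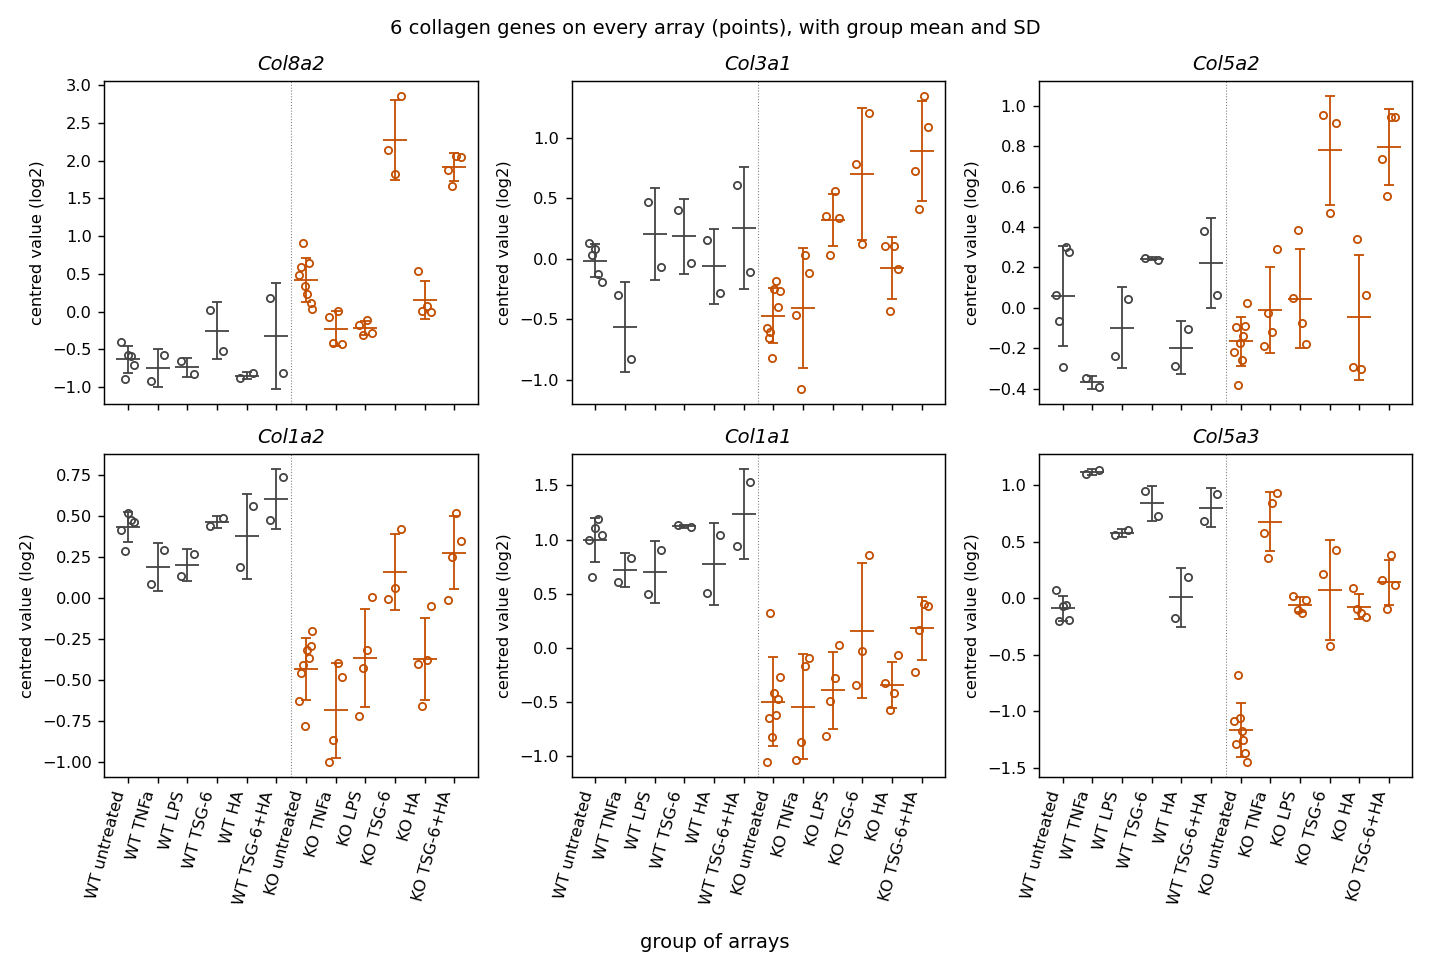
Centred value (log2, vertical axis) of 6 collagen genes on each of the 42 arrays (points), with group mean (bar) and SD (whiskers), by group of arrays (horizontal axis; grey wild-type, orange knockout-labelled). Col8a2, Col3a1, Col5a2 and Col1a2 are highest among knockout-labelled groups with TSG-6, alone or with HA, and Col5a3 lies above untreated with every agent in the knockout-labelled groups.

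Adding TSG-6 to HA gave a second comparison on other arrays. The 4 knockout-labelled arrays with both were set against the 4 with HA alone, and none of these 8 enters the comparison of TSG-6 with untreated cultures. Again Col8a2, Col3a1, Col5a2 and Col1a2 rose, and no chain fell. The 4 of 42 stand beside 1.79% of all genes passing, 0.632% upward and 1.15% downward.

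Col8a2 stood at 0.53, 0.00, 0.07 and -0.00 with HA and at 1.87, 1.66, 2.07 and 2.04 with both. The groups were far apart, with a difference of 1.76 ± 0.20, or 3.38-fold (adjusted p = 8.3e-07). Col3a1 went from 0.11, -0.43, 0.11 and -0.09 to 0.72, 0.41, 1.35 and 1.09, a difference of 0.97 ± 0.23 (adjusted p = 0.0135). Col5a2 went from -0.29, 0.34, -0.30 and 0.06 to 0.74, 0.55, 0.94 and 0.94, a difference of 0.84 ± 0.15 (adjusted p = 0.000616). Col1a2 went from -0.40, -0.66, -0.38 and -0.05 to -0.01, 0.25, 0.52 and 0.35, a difference of 0.65 ± 0.15 (adjusted p = 0.0123). In each of the 4 genes every array with both agents lay above every array with HA alone.

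The smaller of these rises depended on single arrays. Without replicate 2 of HA, Col3a1 was 0.85 (adjusted p = 0.0779) and Col1a2 was 0.55 (adjusted p = 0.0798), and without replicate 3 of TSG-6 with HA they were 0.82 (adjusted p = 0.103) and 0.57 (adjusted p = 0.0858). With only the 8 arrays in the fit, Col8a2 alone passed. The second probe set of Col3a1 gave 0.41 with no call (adjusted p = 0.205), that of Col5a2 gave 0.42 and passed, and those of Col1a2 gave 0.11 and -0.19 with no call. Within culture sets Col8a2 differed by 1.50 and 2.02 and passed in both.

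Col5a3 and Col18a1, which rose with TSG-6 alone, did not pass here: Col5a3 had 0.21 (adjusted p = 0.743), and its HA arrays already stood above its untreated ones. HA alone raised these same chains in knockout-labelled cultures, 2 of 42 beside 0.643% of all genes, of which 0.429% upward. Col5a3 rose by 1.10 ± 0.13 (adjusted p = 2.58e-06) and Col18a1 by 0.55 ± 0.13 (adjusted p = 0.0233). The Col18a1 call was lost without HA replicate 1 (0.56, adjusted p = 0.0796), 3 (0.49, adjusted p = 0.171) or 4 (0.57, adjusted p = 0.0576).

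Against untreated knockout-labelled cultures, TSG-6 with HA raised 7 chains and lowered 1 (9.94% of all genes passed, 3.33% upward and 6.61% downward). This comparison shares its untreated arrays with those of TSG-6 and HA alone. The differences were 1.49 ± 0.17 for Col8a2, 1.36 ± 0.20 for Col3a1, 1.31 ± 0.13 for Col5a3, 0.96 ± 0.13 for Col5a2, 0.71 ± 0.13 for Col1a2, 0.68 ± 0.21 for Col1a1 and 0.66 ± 0.13 for Col18a1. Col1a1 passed here (adjusted p = 0.0366) with arrays at -0.22, 0.16, 0.40 and 0.39 that overlap the untreated range. Col4a5, an alpha 5 chain of type IV collagen, fell by 0.70 ± 0.15 (adjusted p = 0.00202), and its arrays did not overlap.

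**Figure D3:**
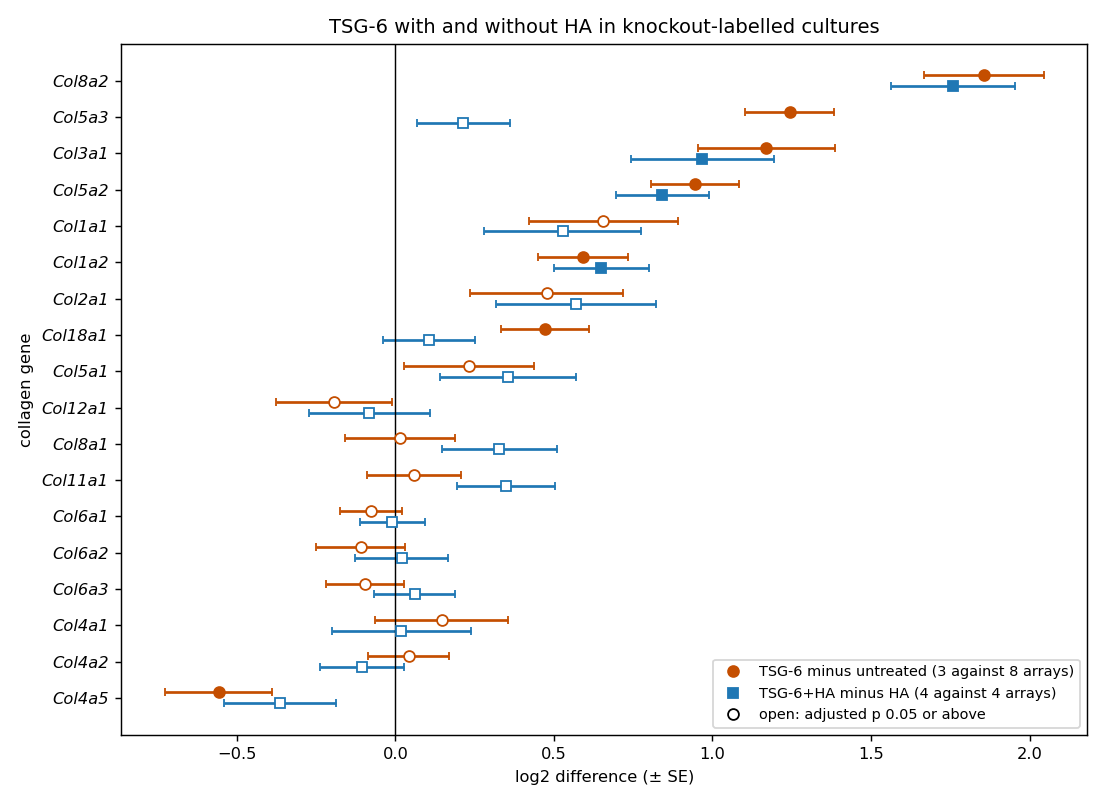
Log2 difference (± SE, horizontal axis) of 18 collagen genes (vertical axis) in knockout-labelled cultures, for TSG-6 against untreated (circles, 3 against 8 arrays) and TSG-6 with HA against HA (squares, 4 against 4 arrays), filled where the adjusted p was under 0.05. Col8a2, Col3a1, Col5a2 and Col1a2 are filled in both, while Col5a3 and Col18a1 are filled for TSG-6 against untreated and open beside HA.

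In wild-type cultures the response to TSG-6 held fewer calls, with only 2 arrays per agent. Col8a2 stood at -0.41, -0.90, -0.57, -0.58 and -0.71 untreated and at 0.02 and -0.52 with TSG-6. It was 0.17 and -0.82 with TSG-6 and HA, and -0.88 and -0.82 with HA. The TSG-6 arrays overlap the untreated ones, and no difference of Col8a2 passed in wild-type cultures. Adding TSG-6 to HA called none of the 42 chains in wild-type cultures, where 0.00550% of all genes passed.

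The difference between the genotypes in the response to TSG-6 was tested directly and passed for Col8a2 alone, 1 of 42 beside 0.0824% of all genes. The response was larger in knockout-labelled cultures by 1.47 ± 0.30 (adjusted p = 0.0333). This call was lost under several alternatives. It had 1.39 under cyclic loess (adjusted p = 0.0592), 1.47 in a fit to the groups compared (adjusted p = 0.194), 1.26 with the replicate number as a block (adjusted p = 0.095) and 1.60 without the arrays high in 18S (adjusted p = 0.0683). It also did not pass in 6 of 18 fits with 1 array left out. These were without wild-type untreated replicate 1 (1.42) or 4 (1.46), wild-type TSG-6 replicate 1 (1.74) or 2 (1.21), and knockout-labelled TSG-6 replicate 1 (1.54) or 3 (1.18). For TSG-6 with HA no chain passed (0.181% of all genes did), and Col3a1 had 1.10 ± 0.33 (adjusted p = 0.264).

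Col5a3 passed in more comparisons of an agent with untreated cultures than any other of the 42 chains. It encodes the alpha 3 chain of type V collagen and passed upward in 9 of the 10 comparisons with untreated cultures, the exception being HA in wild-type cultures (0.10). In untreated knockout-labelled arrays it ran from -1.45 to -0.68 with a median of -1.22. With TNFa it stood at 0.58, 0.36, 0.84 and 0.93, with LPS at 0.02, -0.10, -0.13 and -0.02, with TSG-6 at 0.21, -0.42 and 0.43, and with HA at 0.09, -0.09, -0.13 and -0.16. Every treated array lay above every untreated one.

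The rises of Col5a3 in knockout-labelled cultures were 1.85 ± 0.13 with TNFa, or 3.60-fold (adjusted p = 1.4e-13), 1.11 ± 0.13 with LPS (adjusted p = 4.9e-07) and 1.24 ± 0.14 with TSG-6 (adjusted p = 3.17e-07). In wild-type cultures its untreated arrays stood at 0.07, -0.20, -0.07, -0.06 and -0.19, those with TNFa at 1.10 and 1.14, with LPS at 0.56 and 0.60, with TSG-6 at 0.95 and 0.73 and with TSG-6 and HA at 0.68 and 0.92. None of these treated arrays overlapped the untreated ones. The 5 comparisons of a genotype share their untreated arrays, so the rises within a genotype are not separate evidence of each other.

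The wild-type rises were 1.21 ± 0.17 with TNFa (adjusted p = 1.31e-05), 0.93 ± 0.17 with TSG-6 (adjusted p = 0.00342), 0.89 ± 0.17 with TSG-6 and HA (adjusted p = 0.00374) and 0.67 ± 0.17 with LPS (adjusted p = 0.044). Without wild-type TSG-6 replicate 1 the rise was 0.82 and did not pass (adjusted p = 0.301), nor did that of TSG-6 with HA without its replicate 2 (0.77, adjusted p = 0.283). The LPS rise was 0.64 to 0.69 and did not pass without untreated replicate 2, 3, 4 or 5 or without LPS replicate 1 or 2. The response to HA differed between genotypes by 1.00 ± 0.22 without passing (adjusted p = 0.0831).

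Col5a3 has a second probe set. It varied little over the arrays (SD 0.15 against 0.70) and had a correlation of -0.05 with the one used. On it the differences in knockout-labelled cultures were 0.12 with TNFa and -0.04 with TSG-6, and none passed. All statements on Col5a3 therefore rest on 1 of 2 probe sets.

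TNFa moved collagens both ways in knockout-labelled cultures, 3 upward and 5 downward (8 of 42, beside 14.0% of all genes, 6.71% upward and 7.32% downward). Col5a3, Col18a1 and Col26a1 rose. Col11a1, Col8a1, Col8a2, Col6a3 and Col4a5 fell. The network class took 2 of its 3 members downward, with a class median of -0.64, and the median over the 42 chains was 0.03.

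Col18a1 encodes the core chain of type XVIII collagen, a basement membrane proteoglycan whose cleaved end is endostatin. It ran from -1.13 to -0.70 in untreated knockout-labelled arrays with a median of -0.85 and stood at 0.56, 0.38, 0.85 and 0.43 with TNFa. All 4 lay above the untreated range, a rise of 1.41 ± 0.13, or 2.65-fold (adjusted p = 9.45e-11), of 1.41 and 1.40 in the culture sets. In wild-type cultures it stood at 2.39, 2.03, 2.13, 1.63 and 1.62 untreated and at 2.23 and 1.92 with TNFa, within the untreated range. The responses differed by 1.29 ± 0.21 (adjusted p = 0.000451; 1 of 42 beside 0.808% of all genes), and this difference passed in every fit with 1 array left out.

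Col11a1, a minor fibrillar chain of cartilage type XI collagen, fell with TNFa in both genotypes. In knockout-labelled arrays it went from between 0.37 and 0.78 (median 0.59) to -0.63, -0.65, -0.74 and -0.53, a fall of 1.21 ± 0.13, or 2.31-fold (adjusted p = 1.32e-08). In wild-type arrays it went from -0.40, -0.57, -0.93, -0.87 and -0.85 to -1.47 and -1.91, a fall of 0.97 ± 0.18 (adjusted p = 0.000742). Neither genotype's groups overlapped. Without wild-type TNFa replicate 2 the wild-type fall was 0.75 and did not pass (adjusted p = 0.157), nor did it on the second probe set of Col11a1 (-0.74, adjusted p = 0.21).

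Sox9, the transcription factor that drives Col2a1 and Col11a1 in cartilage, fell by 1.36 ± 0.16 with TNFa in knockout-labelled cultures (adjusted p = 3.7e-08). It was 1 of 8 chondrocyte markers to pass there. The mean of the 8 ran from 0.21 to 0.51 over untreated arrays (median 0.35) and from -0.12 to 0.21 with TNFa (median -0.01). The mean of 10 fibroblast markers, of which Vim and Fap passed downward, had a median of 0.21 untreated (-0.02 to 0.30) and -0.08 with TNFa (-0.15 to 0.08). The part of either list in the changes of the collagens with TNFa was not tested. Col2a1, the type II chain of cartilage, was not called with any agent.

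The lattice chains fell together with TNFa. Col8a1 went from between 0.11 and 1.24 (median 0.37) to -0.77, -0.11, -0.34 and -0.11, a fall of 0.79 ± 0.16 (adjusted p = 0.000371). Col8a2 went from between 0.03 and 0.90 to -0.07, -0.41, 0.01 and -0.43, a fall of 0.64 ± 0.17 (adjusted p = 0.00765). For both chains all treated arrays lay below all untreated ones, the reverse of what TSG-6 did to Col8a2. Without the arrays high in 18S the difference of Col8a2 with TNFa was -0.56 and did not pass (adjusted p = 0.0734).

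Col6a3, the long alpha 3 chain of type VI collagen, fell by 0.60 ± 0.11 with TNFa (adjusted p = 0.000128), while its partners Col6a1 and Col6a2 did not pass. Col4a5 fell by 0.51 ± 0.15 (adjusted p = 0.0194), and without TNFa replicate 1 or 2 it was -0.40 or -0.46 and did not pass. Col26a1 rose by 0.36 ± 0.11 (adjusted p = 0.0231), without those replicates 0.35 or 0.36 and not passing, and its other probe set gave -0.07. In wild-type cultures TNFa called Col5a3 and Col11a1 alone, 2 of 42 beside 2.56% of all genes.

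LPS called 5 chains in knockout-labelled cultures, 3 up and 2 down, beside 1.79% of all genes, 0.973% up and 0.819% down. Col3a1 rose from between -0.82 and -0.18 to 0.36, 0.03, 0.56 and 0.34, a difference of 0.79 ± 0.20 (adjusted p = 0.0227). Col18a1 rose by 0.75 ± 0.13 (adjusted p = 0.000355) to -0.21, -0.27, 0.07 and -0.02. Col8a2 fell by 0.64 ± 0.17 (adjusted p = 0.0402) and Col6a3 by 0.50 ± 0.11 (adjusted p = 0.00842). Beside Col5a3, Col18a1 was thus the chain that rose with all 5 agents in knockout-labelled cultures.

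Most of the LPS calls were close to the threshold. Col3a1 did not pass without LPS replicate 1 (0.78), 3 (0.71) or 4 (0.78) or on its second probe set (0.35, adjusted p = 0.264), and Col6a3 not without LPS replicate 3 (-0.42) or 4 (-0.44). Col8a2 did not pass in 9 of 12 fits with 1 array left out, namely those without untreated replicate 1, 2, 3, 4 or 6 or any LPS array, where it ran from -0.68 to -0.57. In wild-type cultures LPS called Col5a3 and Col11a1, 2 of 42 beside 1.19% of all genes. Col11a1 stood there at -1.65 and -1.80 with LPS, a fall of 1.00 ± 0.18 (adjusted p = 0.000928), and 0.93 without LPS replicate 2 (adjusted p = 0.0707). The second probe set of Col11a1 gave -0.91 there (adjusted p = 0.112).

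The response of Col18a1 to LPS was larger in knockout-labelled than in wild-type cultures by 1.03 ± 0.21 (adjusted p = 0.0159; 1 of 42 beside 0.214% of all genes). It did not pass without wild-type LPS replicate 2 (0.86, adjusted p = 0.502) or knockout-labelled LPS replicate 3 (0.97, adjusted p = 0.0531), on the second probe set (0.64, adjusted p = 0.53), under cyclic loess (0.83, adjusted p = 0.402), in a fit to the groups compared (adjusted p = 0.0647) or without the arrays high in 18S (adjusted p = 0.426). No chain differed between genotypes in the response to HA, where 0.0440% of all genes did.

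The other wild-type comparisons called few chains. TSG-6 called Col5a3 alone (0.429% of all genes passed), and HA called none (0.132%). TSG-6 with HA called 2 beside 0.802%, Col5a3 upward and Col11a1 downward by 0.77 ± 0.18 (adjusted p = 0.0277). That fall of Col11a1 was 0.69 without untreated replicate 1, 0.73 without untreated replicate 2 and 0.47 without replicate 2 of TSG-6 with HA, and did not pass in any of these.

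More collagens differed between the genotypes than with any agent. In untreated cultures 21 of the 42 chains differed, 14 lower and 7 higher in the 8 knockout-labelled than in the 5 wild-type arrays. Among all genes 37.6% differed, 16.3% lower and 21.3% higher. Under cyclic loess scaling 13 chains passed, and differences shrank, grew or turned as given beside each gene. That scaling takes the mean of centred values for brightness. Centred values hold no absolute level, so it can itself alter differences by genotype. How far it did so was not tested. Basement membrane chains Col4a1 and Col4a2, the multiplexin Col18a1, the transmembrane chain Col23a1 and type I and VI chains were lower. Cartilage chains Col2a1 and Col11a1, fibril-associated Col12a1 and Col16a1 and the 3 network chains were higher.

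**Figure D4:**
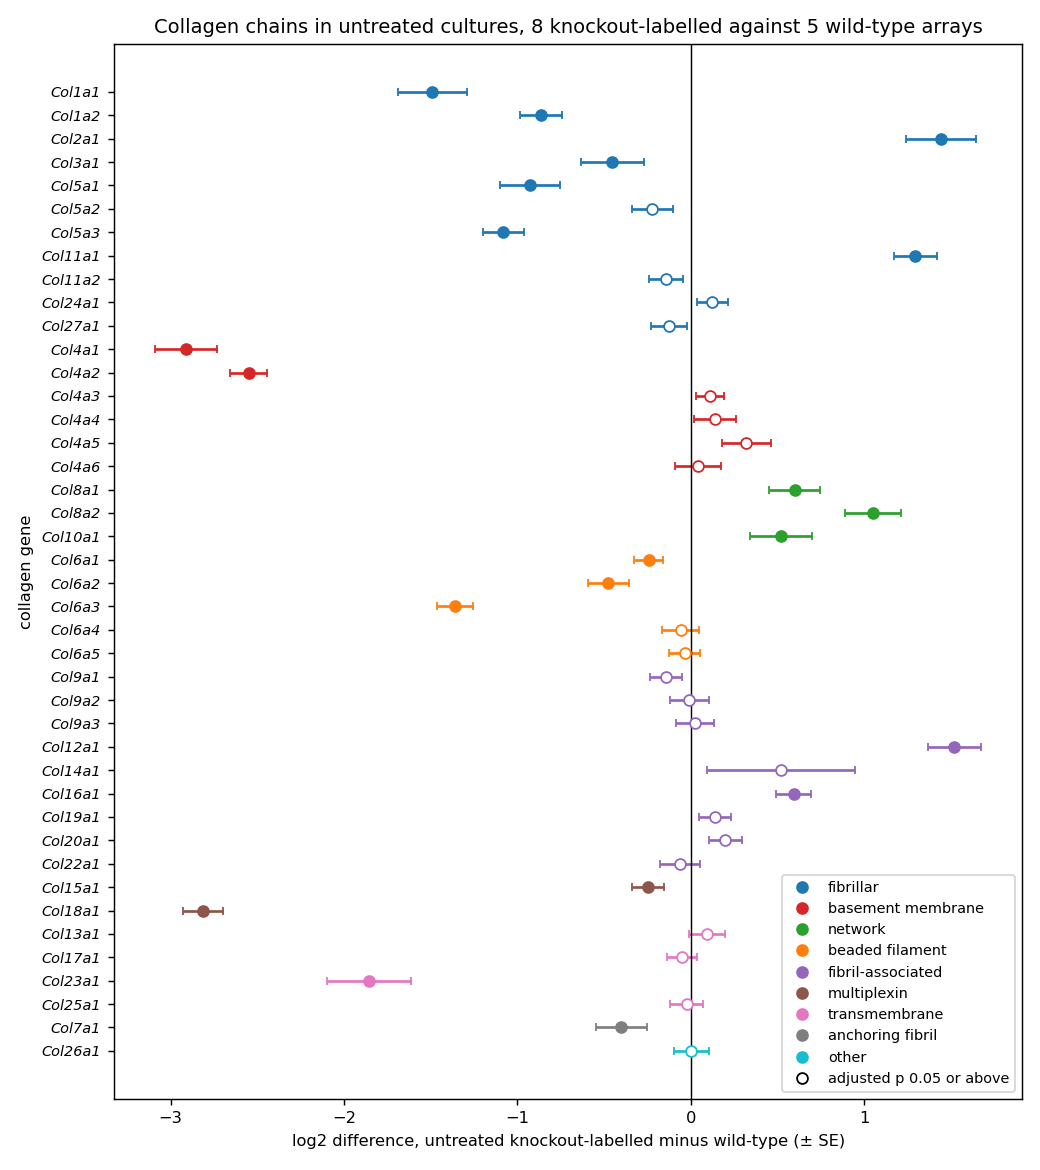
Log2 difference (± SE, horizontal axis) between untreated knockout-labelled (8) and wild-type (5) arrays for the 42 collagen genes (vertical axis), coloured by class and open where the adjusted p was 0.05 or above. Col4a1, Col18a1 and Col4a2 lie between -2.91 and -2.55, and Col12a1 and Col2a1 at 1.52 and 1.44. Under cyclic loess scaling the signs of Col4a2, Col6a3 and Col12a1 turned, and Col4a1, Col23a1, Col2a1 and Col11a1 no longer passed. That scaling can itself alter genotype differences, since centred values hold no absolute level, and how far it did so was not tested.

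Col4a1 and Col4a2 build the type IV trimer of nearly every basement membrane. Col4a1 stood at 2.75, 2.51, 2.55, 2.27 and 2.22 in untreated wild-type arrays and from -0.97 to 0.06 (median -0.44) in untreated knockout-labelled ones. Col4a2 stood at 2.66, 2.36, 2.55, 2.14 and 2.02 against -0.45 to 0.06 (median -0.21). No array of one genotype reached the other, and the differences were -2.91 ± 0.18 for Col4a1, or 7.53-fold lower (adjusted p = 7.02e-16), and -2.55 ± 0.11 for Col4a2, or 5.86-fold lower (adjusted p = 2.13e-20). Under cyclic loess scaling neither difference held. On centred values that scaling can itself alter genotype differences, and whether it or the deposited scaling is nearer was not tested. Col4a2 turned sign in all 6 conditions (0.31 untreated). Col4a1 kept its sign but shrank to -0.25 untreated (adjusted p = 0.18) and to between -0.31 and -0.11 with the agents, and passed in none of the 6 conditions.

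The genes of the pair lie on opposite strands, and by their annotated start sites the transcripts overlap at the start. In GRCm38.p6 the Col4a1 start site used here is at position 11312826 of chromosome 8 on the minus strand. That of Col4a2 is at 11312805 on the plus strand, 21 bases away. The annotated span of Col4a1 reaches 11312889, so its outermost start lies further from that of Col4a2. A CCAAT, read as ATTGG in the Col4a1 direction, lies upstream of each start site, within the span of the other gene. The lines show 30 bases around each, with the motif in capitals, at chr8:11312955-11312984 (-) for Col4a1 and chr8:11312760-11312789 (+) for Col4a2.
Col4a1: gtgcttgcccgggATTGGcgagccaagggg
Col4a2: cccgaggagctccCCAATttgttggcgctg

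The members of this pair rose and fell together: over the 15 wild-type arrays their values had a Pearson correlation of 0.89, and over the 27 knockout-labelled arrays 0.86. Arrays of a genotype share treatments and culture sets, so these are descriptions. The other type IV chains, Col4a3 to Col4a6, did not pass between untreated genotypes, with differences from 0.04 to 0.32.

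Endothelial markers moved with these chains. All 10 of 10 (among them Tie1, Cldn5, Egfl7 and Tek) were lower in untreated knockout-labelled cultures, with a median difference of -5.09. The mean of the 10 ran from 3.48 to 4.21 over the wild-type arrays and from -1.58 to 0.32 over the knockout-labelled ones, and no marker can be said to be at 0, since the values are centred. Between the knockout-labelled culture sets the endothelial mean (-0.55 to 0.32 in one, -1.58 to -1.33 in the other) and untreated Col4a1 (-0.02 and -0.88 on average, adjusted p = 3.68e-05) were both lower in the same set. Untreated Col18a1 did not follow them, with means of -0.94 and -0.76 in these sets (adjusted p = 0.403). The sets were drawn from gaps in probe sets other than those of collagens, and endothelial ones were not left out. Emcn ran from -0.80 to 0.54 in one knockout-labelled set and from -5.27 to -4.20 in the other. The lower endothelial mean of the latter set therefore follows in part from how the sets were drawn. The part of endothelial cells in the differences of Col4a1, Col4a2, Col18a1 and other chains was not tested.

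**Figure D5:**
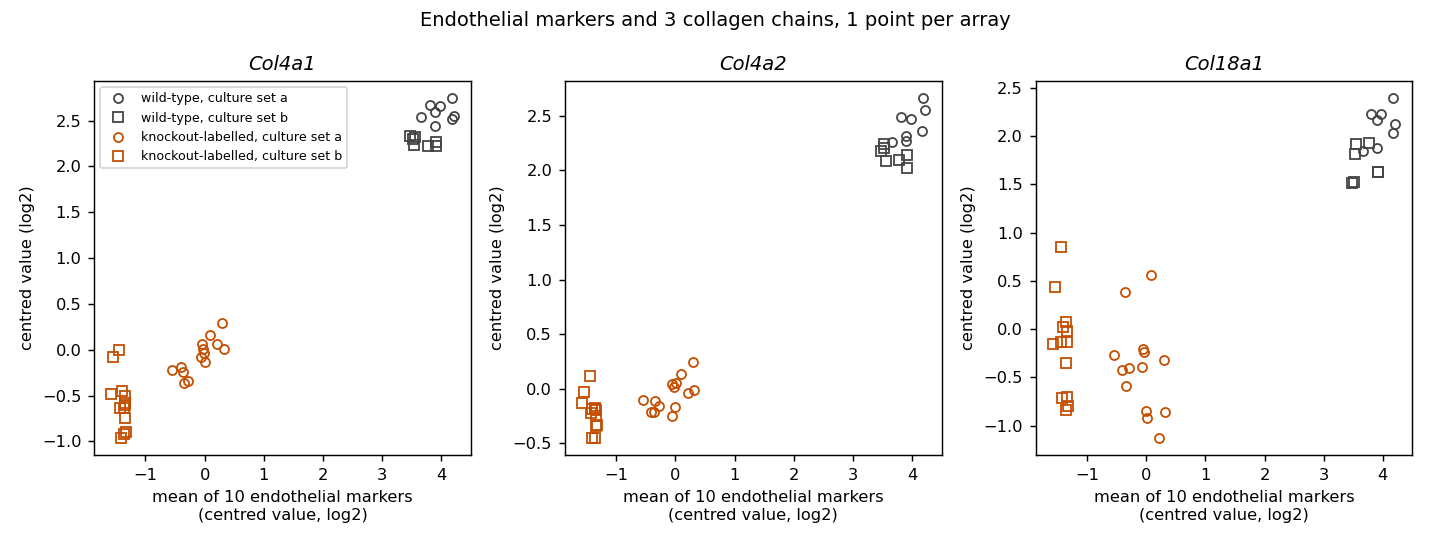
Centred value (log2, vertical axis) of Col4a1, Col4a2 and Col18a1 against the mean of 10 endothelial markers (centred log2, horizontal axis), 1 point per array (grey wild-type, orange knockout-labelled; circles and squares are the culture sets). The 15 wild-type arrays lie between 3.48 and 4.21 on the horizontal axis and the 27 knockout-labelled arrays between -1.58 and 0.32, so the 2 genotypes form separate clouds in each panel.

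Col18a1, another vascular basement membrane chain, was lower in untreated knockout-labelled cultures by 2.81 ± 0.12, or 7.03-fold (adjusted p = 1.81e-20), with wild-type arrays from 1.62 to 2.39 and knockout-labelled ones from -1.13 to -0.70. Its second probe set gave -2.68. It was lower in all 6 conditions, though under cyclic loess the untreated difference was -0.69, which still passed, and the sign turned with TNFa and with LPS. With TNFa the gap was 2.87-fold.

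Among fibrillar chains, 5 were lower and 2 higher. Col1a1 stood at 0.99, 0.66, 1.11, 1.19 and 1.04 in wild-type arrays and from -1.05 to 0.32 (median -0.54) in knockout-labelled ones, 1.49 ± 0.20 lower, or 2.81-fold (adjusted p = 1.02e-07), with no overlap. Its second probe set gave -0.84 and did not pass (adjusted p = 0.239), and under cyclic loess the difference was -0.74, which passed. Its partner Col1a2 was lower by 0.86 ± 0.12 (adjusted p = 2.51e-07) on the probe set used, and by 0.08 and 0.18 on the others. Col5a1 was lower by 0.92 ± 0.17 (adjusted p = 3.46e-05) and Col5a3 by 1.08 ± 0.12 (adjusted p = 1.67e-09). Col3a1 was lower by 0.45 ± 0.18 with overlapping arrays (adjusted p = 0.0468), and Col5a2 did not pass.

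The 2 fibrillar chains that were higher are chains of cartilage collagens, but other such chains, fibrillar Col11a2 and the type IX chains, passed in no comparison. Col2a1, the type II chain, stood at -1.23, -1.32, -1.36, -0.69 and -0.97 in wild-type arrays and from 0.06 to 1.19 (median 0.11) in knockout-labelled ones, higher by 1.44 ± 0.20, or 2.72-fold (adjusted p = 3.13e-07). Col11a1 was higher by 1.29 ± 0.12 (adjusted p = 8.07e-11), and in neither gene did the genotypes overlap. Under cyclic loess neither passed, Col2a1 at 0.11 (adjusted p = 0.791) and Col11a1 at 0.028 (adjusted p = 0.893). Of 8 chondrocyte markers 4 were higher too, Sox9 by 1.55 ± 0.15 and Comp by 4.42 ± 0.36 among them. The mean of the 8 ran from -1.70 to -1.31 over wild-type and from -0.12 to 0.51 over knockout-labelled arrays, and its part in these differences was not tested.

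All 3 network chains were higher in untreated knockout-labelled cultures. Col8a2 was higher by 1.05 ± 0.16, or 2.07-fold (adjusted p = 1.11e-06), its wild-type arrays all at or under -0.41 and its knockout-labelled ones all above 0. Under cyclic loess it was higher by 1.99. Col8a1 was higher by 0.60 ± 0.15 (adjusted p = 0.00106) and Col10a1, the chain of growth plate cartilage, by 0.52 ± 0.18 (adjusted p = 0.0183), both with overlapping arrays.

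Of the beaded filament chains 3 of 5 were lower. Col6a3 stood at 1.57, 1.39, 1.57, 1.34 and 1.21 in wild-type arrays and from -0.12 to 0.53 (median -0.02) in knockout-labelled ones, 1.36 ± 0.10 lower, or 2.56-fold (adjusted p = 2.39e-13), a sign that turned under cyclic loess (0.30). Col6a1 and Col6a2, which join it in the type VI monomer, were lower by 0.24 ± 0.08 (adjusted p = 0.0185) and 0.48 ± 0.12 (adjusted p = 0.00116), and the arrays of each overlapped. The assembly partners thus differed by unequal amounts.

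Fibril-associated chains were mostly unmoved by genotype, with 2 of 9 higher and a class median of 0.14. Col12a1, a long chain that links fibres to the surrounding matrix, stood at -1.46, -1.10, -1.13, -1.01 and -1.29 in wild-type arrays and from -0.01 to 0.69 (median 0.31) in knockout-labelled ones, 1.52 ± 0.15 higher, or 2.87-fold (adjusted p = 2.76e-10). Another of its probe sets gave 1.44 and the remaining ones 0.11 and 0.10, and the sign turned under cyclic loess (-0.17). Col16a1 was higher by 0.59 ± 0.10 (adjusted p = 1.03e-05) without overlap. Col14a1 varied most between cultures, with an SE of 0.43, and did not pass.

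Of the remaining classes, Col23a1, a chain anchored in the cell membrane, stood at 2.01, 1.56, 1.57, 1.11 and 1.07 in wild-type arrays and from -0.73 to -0.08 (median -0.35) in knockout-labelled ones, 1.85 ± 0.24 lower, or 3.62-fold (adjusted p = 6.42e-08). The genotypes did not overlap, and its other probe sets gave -1.28 and -1.86. Under cyclic loess it was -0.20 and did not pass (adjusted p = 0.645). The multiplexin Col15a1 (0.25 lower, adjusted p = 0.0368) and Col7a1, the anchoring fibril chain of skin (0.40 lower, adjusted p = 0.0292), were lower with overlapping arrays.

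The genotype differences recurred in treated cultures, where other arrays were compared. Of the 42 chains 13 passed with TNFa (23.5% of all genes did), 14 with LPS (24.0%), 14 with TSG-6 (18.9%), 16 with HA (23.3%) and 14 with TSG-6 and HA (21.6%). In all 6 conditions 9 chains passed: Col1a1, Col4a1, Col4a2, Col6a3, Col18a1 and Col23a1 lower and Col2a1, Col11a1 and Col12a1 higher in knockout-labelled cultures. On its second probe set Col1a1 passed in none of the 6 conditions, and its sign turned with TSG-6 (0.26). Col23a1 with TNFa did not pass on its other probe sets (-0.90 and -0.18). The probe sets of Col12a1 that gave 0.11 and 0.10 untreated passed in none of the 6 conditions. Col4a1 was lower by 2.54 to 2.91 across the conditions. Under TSG-6, Col8a2 was 5.76-fold higher in knockout-labelled than in wild-type cultures.

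Fibroblast markers were checked against the labels. Of 10, Pdgfra, Vim and Twist1 were higher in untreated knockout-labelled cultures and Thy1 was lower by 1.91 ± 0.13, and their mean ran from -0.20 to 0.19 over untreated wild-type and from -0.02 to 0.30 over untreated knockout-labelled arrays. None of 7 leukocyte markers passed, 1 of 7 mural cell markers (Mcam) was lower, and 1 of 4 osteoblast markers (Dmp1) was higher. With TSG-6 in knockout-labelled cultures none of the endothelial, leukocyte, mural or osteoblast markers passed, Vim was lower by 0.32 ± 0.08, Hapln1 higher by 1.46 ± 0.33 and Sox9 lower by 0.71 ± 0.17.

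The genes that make, process and read collagen were followed as lists. Of 21 genes of synthesis, folding and secretion, 6 rose and none fell with TSG-6 in knockout-labelled cultures (28.6%, beside 4.75% of all genes), with a list median of 0.23. They were the prolyl 4-hydroxylase subunits P4ha1, P4ha2 (0.37) and P4ha3 (0.81 ± 0.18), the coat proteins Sec23a and Sec24d (0.39 ± 0.08) of the vesicles that carry procollagen, and Creb3l1 (0.86 ± 0.20), a transcription factor of bone type I collagen. Adding TSG-6 to HA raised 4 of the 21: Creb3l1 by 0.84 ± 0.21, Sec24d by 0.32 ± 0.08, Sec23a by 0.43 ± 0.11 and P3h1, a prolyl 3-hydroxylase, by 0.61 ± 0.17.

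With TNFa 3 of the 21 rose in knockout-labelled cultures, a share of 14.3% beside 14.0% of all genes, with P4ha2 at 0.97 ± 0.09. Between untreated genotypes 8 of the 21 differed, 38.1% beside 37.6% of all genes, so that in both comparisons the list's share was that of all genes. Of these 6 were higher, among them P3h3, P3h4, Crtap and the lysyl hydroxylase Plod2 (1.23 ± 0.19), and P3h1 and the collagen chaperone Serpinh1 were lower. In wild-type cultures the list held no call with TNFa, TSG-6, HA or TSG-6 with HA and 1 with LPS.

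Of 10 genes of processing and crosslinking, TSG-6 raised Adamts3, which trims procollagen ends, by 0.58 ± 0.14 and the lysyl oxidase relative Loxl3 by 0.48 ± 0.12 in knockout-labelled cultures. TNFa raised the transglutaminase Tgm2 by 1.67 ± 0.15 and the procollagen protease Tll1 by 0.77 ± 0.15 and lowered the protease enhancer Pcolce by 0.29 ± 0.08. Untreated knockout-labelled cultures had Tll1 lower by 3.19 ± 0.14 and Pcolce higher by 1.21 ± 0.07.

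Of 9 genes of degradation and uptake, the gelatinase Mmp9 rose by 1.85 ± 0.21 with TSG-6 and by 3.14 ± 0.19 with TNFa in knockout-labelled cultures. Between untreated genotypes 6 of 9 were higher and none lower in knockout-labelled cultures (66.7%, beside 37.6% of all genes), the collagenase Mmp13 by 2.75 ± 0.32 and the stromelysin Mmp3 by 2.47 ± 0.46. Of 7 collagen receptors 4 were higher there, Ddr1 by 0.83 ± 0.10, Ddr2 by 1.00 ± 0.13, Itga10 by 0.87 ± 0.17 and Itga1 by 0.78 ± 0.27. TNFa lowered Itga1 by 1.08 ± 0.29 and Itga10 by 0.61 ± 0.18 in knockout-labelled cultures, and TSG-6 called no receptor.

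The partners of type IV collagen in basement membranes fell with it only in part. Of 12, 7 were lower and 2 higher in untreated knockout-labelled cultures (75%, beside 37.6% of all genes), with a median of -0.50. The laminin chains Lamc1 and Lama1 were lower by 1.12 ± 0.07 and 0.87 ± 0.11 and the linker Nid1 by 1.23 ± 0.12, while its relative Nid2 was higher by 2.42 ± 0.13. Nid2 was lowered in knockout-labelled cultures by TSG-6 (0.81 ± 0.15), by TSG-6 added to HA (0.81 ± 0.16) and by TNFa (1.10 ± 0.14).

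Of 10 TGF-beta ligands and targets, TSG-6 raised Tgfbi by 1.80 ± 0.34, the smooth muscle actin Acta2 by 1.13 ± 0.31 and Ccn2 by 0.57 ± 0.16 in knockout-labelled cultures and lowered Tgfb2 by 0.43 ± 0.12. Added to HA, it raised Tgfbi by 2.06 ± 0.35 and lowered Tgfb2 by 0.56 ± 0.12. TNFa lowered Tgfbi by 1.59 ± 0.30, the opposite direction, as for Col8a2.

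The genes whose pattern over the 12 group means was most like that of Col1a1 were Adam12 (Pearson r = 0.986), Atp5d (0.985), Cdr2l and Lims1 (0.983 each), Armcx4 (0.982), Map7d1 and Pdlim7 (0.981 each), and Kctd15, Acsl3 and Esyt2 (0.98 each). The 12 means lie in 2 genotypes that differ in many genes, so this is a description only. Chains that assemble with each other kept a relation within each genotype to differing degrees. Col1a1 and Col1a2 had correlations of 0.93 over the 15 wild-type and 0.86 over the 27 knockout-labelled arrays, Col6a1 and Col6a2 0.97 and 0.79, and Col8a1 and Col8a2 0.34 and 0.47. Arrays of a genotype share treatments and culture sets, so no test is given for these values.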

How the data were processed

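Expression was measured on 42 one-colour Affymetrix arrays. Per the submitters' processing notes the authors used RMA, of unstated version, and the deposited table gives log2 values of 45101 probe sets. Each probe set's median over the arrays is 0, so absolute level is lost, and the base 2 was inferred. The platform annotation lists 1 gene for 34958 probe sets, and 34754 of these had a gene number in the RefSeq table.

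For each gene the probe set with the largest SD was used, avoiding any with a correlation above 0.7 to the 18S probe set. In limma 3.58.1 (R 4.3.3), 1 model with 12 group means was fitted over all arrays (30 residual and 4.23 prior degrees of freedom), with 23 comparisons, each adjusted over 18194 genes. The fit was also run on simulated data with independent normal noise and no culture sets, so that run cannot check the fit for such sets. Arrays carry no read depth, and their number limits the precision.

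Members and lists were chosen with earlier results of these data known. For each comparison the text names up to 6 chains each way that passed without overlap of arrays, by size, beside the 8 chains Col1a1, Col1a2, Col3a1, Col4a1, Col4a2, Col6a1, Col6a2 and Col6a3. It names up to 4 genes of each related list by smallest adjusted p. Others named were chosen after their values were seen. Alternatives were other probe sets, scaling, blocks, fewer arrays and an SD filter.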

Additional observations from a re-analysis of the deposited data

Results flagged for a closer look

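Among 120 sets of 4 to 8 arrays (20 chains), 4 held an array far from the rest of its group, where chance gives about 1 in 20. HA replicate 1 of the knockout-labelled cultures was the highest of its 4 for Col8a2 (0.53, the next at 0.07), Col4a2 (0.24, the next at -0.16) and Col6a1 (0.080, the next at -0.075). Untreated knockout-labelled replicate 3 was the highest of its 8 for Col6a2 (0.37, the next at 0.06).

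The response differed between the genotypes, by a test of the difference itself, for 2 chains. Col18a1 rose more in knockout-labelled than in wild-type cultures with TNFa, by 1.29 (adjusted p = 0.000451), and with LPS, by 1.03 (adjusted p = 0.0159). Col8a2 did so with TSG-6, by 1.47 (adjusted p = 0.0333). The Col8a2 call was lost under cyclic loess (adjusted p = 0.0592), in a fit to its groups (0.194), with the replicate block (0.095), without the arrays high in 18S (0.0683) and in 6 of 18 fits with 1 array left out. That of Col18a1 with LPS was lost under cyclic loess (adjusted p = 0.402), in a fit to its groups (0.0647), without the arrays high in 18S (0.426), on its second probe set (0.53) and in 2 fits with 1 array left out.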

How the results depend on the processing

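Of the 110 pairs of a named chain and a comparison, 93 kept their direction under every alternative other than another probe set, and 31 also kept their call. Reversals came from cyclic loess scaling and from other probe sets, with none under array medians set to 0 (an alternative chosen after seeing the data), the culture set block, the mean of all probe sets, a fit to the groups compared, the SD filter or the fits without arrays. Cyclic loess takes the mean of 2 centred values for brightness, so it can itself alter differences by genotype. How far it did so was not tested.

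Under cyclic loess the knockout-labelled minus wild-type difference turned, in the order untreated, TNFa, LPS, TSG-6, HA and TSG-6 with HA, to 0.31, 0.33, 0.32, 0.29, 0.34 and 0.15 for Col4a2. For Col12a1 it was -0.17 untreated, -0.071 with TNFa, -0.10 with TSG-6 and -0.19 with TSG-6 and HA, and for Col6a3 0.30 untreated, 0.071 with LPS and 0.085 with HA. With TNFa it was -0.19 for Col11a1, 0.44 for Col18a1 and 0.45 for Col23a1, and with LPS 0.14 for Col18a1. Chains called between genotypes fell to 13 untreated, 3 with TNFa, 5 with LPS and 4 each with TSG-6, HA and TSG-6 with HA.

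Another probe set of the gene turned Col5a3 (-0.040 and -0.045 with TSG-6 in wild-type and knockout-labelled cultures, -0.085 with HA), Col26a1 (-0.068), Col1a2 in knockout-labelled cultures (-0.16 with TSG-6, -0.13 with TSG-6 and HA, -0.19 against HA), and between genotypes Col5a2 (-0.029 with TSG-6, -0.043 with TSG-6 and HA), Col1a1 (0.26 with TSG-6) and Col12a1 (-0.053 with HA, -0.24 and -0.092 with TSG-6 and HA). The cause was not tested.

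Counts of chains called moved as follows. In wild-type cultures LPS called 1 under cyclic loess, 1 with array medians set to 0 and 5 with the culture set block, and TSG-6 with HA called 1 with the mean of probe sets and 1 in a fit to its groups. HA in knockout-labelled cultures called 1 under cyclic loess. TSG-6 with HA against HA in knockout-labelled cultures called 1 in a fit to its groups. Without the 15 arrays high in 18S, which leaves fewer arrays, TNFa, LPS and TSG-6 with HA in wild-type cultures called 1, 1 and 0, LPS and HA in knockout-labelled cultures 3 and 1, and the genotype comparisons with LPS, HA and TSG-6 with HA 8, 9 and 9. Differences in response to LPS and to TSG-6 called 0 each under cyclic loess, in a fit to their groups and without high 18S arrays. With the culture set block the responses to TSG-6, HA and TSG-6 with HA called 3, 1 and 6. The last called 1 with the mean of probe sets and 1 under cyclic loess.

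Replicate numbers paired the arrays only in part and were left out of the main fit. For TSG-6 with HA against HA, same-numbered arrays had correlations of 0.68 each in wild-type cultures. In knockout-labelled cultures these were 0.64, -0.02, 0.47 and 0.49 for replicates 1, 2, 3 and 4. For TNFa against untreated in wild-type cultures they were 0.32 and -0.65. With the replicate number as a block, TSG-6 and HA in wild-type cultures called 2 and 1 chains, and the differences in response to TSG-6, HA and TSG-6 with HA 2, 1 and 2. Calls lost with this block were those of Col8a2 for the difference in response to TSG-6 (1.26, adjusted p = 0.095), Col5a3 with LPS in wild-type cultures (0.64, adjusted p = 0.0538) and Col26a1 with TNFa (0.37, adjusted p = 0.0501). No other count of calls moved by over 1.5 times.

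With each array left out in turn, counts in wild-type cultures ran from 1 to 2 with TNFa, 0 to 2 with LPS, 0 to 1 with TSG-6 and 0 to 2 with TSG-6 and HA. In knockout-labelled cultures they ran from 2 to 5 with LPS, 1 to 2 with HA and 2 to 4 for TSG-6 with HA against HA. Between genotypes they ran from 9 to 14 with LPS (9 without wild-type LPS replicate 1), 9 to 17 with HA (9 without wild-type HA replicate 2) and 9 to 15 with TSG-6 and HA (9 without wild-type replicate 2). Differences in response ran from 0 to 1 for LPS, TSG-6, HA and TSG-6 with HA; those to HA and to TSG-6 with HA reached 1 without knockout-labelled untreated replicate 3, and the latter also without wild-type TSG-6 with HA replicate 1. Groups of 2 wild-type arrays limit all wild-type comparisons.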
